A study of Mus musculus with 11 samples.

Results

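Meg3, Rian, Mirg, Neat1, Malat1, Miat and Snhg11 are long RNAs that act in, or are processed in, the nucleus. These 7 entries were taken by symbol from a table of 24421 entries with read counts of the mouse main olfactory epithelium, and all 7 passed the filter that kept 16574 entries for testing. They were chosen by their levels in these same libraries, because their mean levels were higher in 5 of the 11 libraries than in the other 6, although for Malat1 the libraries overlapped. What separates these library sets is therefore given below as a description and not as a finding. The libraries came from mice with 2, 1 or 0 intact copies of the olfactory Taar cluster, which encodes the trace amine-associated receptors of a small class of olfactory sensory neurons (OSNs). The TAAR cluster KO line gave 4 homozygous and 4 heterozygous libraries beside 3 of wild type, all labelled C57BL/6 and P1-P2, and made from total RNA of the whole tissue with polyA selection and a directional kit. The study also gives another age and a mixed background for this line, so that age and strain cannot be assigned here. Both sexes were used, which no label assigns to a library. No label said which libraries came from the same litter or preparation, so p-values measure the spread between these libraries.

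Meg3, Rian and Mirg lie one after another on the same strand of the imprinted Dlk1-Dio3 domain, and in mice they are transcribed from the maternal chromosome, whereas the protein-coding genes Dlk1, Rtl1 and Dio3 are transcribed mainly from the paternal one. Meg3 is a regulatory RNA, Rian carries many box C/D small nucleolar RNAs (snoRNAs) in its introns, and Mirg carries a large group of microRNAs. Neat1 is the scaffold of paraspeckles, Malat1 gathers in nuclear speckles where splicing factors are stored, Miat forms its own nuclear bodies in neurons, and Snhg11 is a neuronal snoRNA host gene.

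In the mm10 assembly (GENCODE release M21) Meg3 spans chr12:109541001-109571726, Rian chr12:109603940-109661716 and Mirg chr12:109729764-109749460, all on the plus strand, so that the 3 transcription units cover 208 kb. Malat1 (chr19:5795690-5802672) and Neat1 (chr19:5824708-5845478) are neighbours on the minus strand with 22.0 kb between them. Miat lies at chr5:112213228-112229395 on the minus strand and Snhg11 at chr2:158375638-158386145 on the plus strand. Snhg11 is labelled protein_coding in that release, and the other 6 carry noncoding labels.

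Between Dlk1 and Dio3 the count table held 73 entries, 65 of them small RNAs. RefSeq places 58 microRNA hairpins between these genes, of which 14 lie within the span of Mirg, 3 within Rian and 1 within Meg3. Of the 65 small RNA entries, 25 had any count, with 248 counts in all over the 11 libraries. Mir3072, near the end of Mirg, had 121 of them, and no other entry exceeded 32. The mature sequences of the 3 microRNA entries with the most counts, all within Mirg, are shown because they are what the host RNA carries (RefSeq, GRCm38.p6). Capitals mark the seed, bases 2 to 8.

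mmu-miR-3072-5p: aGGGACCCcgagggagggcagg
mmu-miR-3072-3p: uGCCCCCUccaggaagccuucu
mmu-miR-377-5p: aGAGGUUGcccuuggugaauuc
mmu-miR-377-3p: aUCACACAaaggcaacuuuugu
mmu-miR-453: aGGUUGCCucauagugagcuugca

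The 5 seeds differed from each other. That of miR-377-5p was shared with miR-672-5p, and that of miR-453 with miR-496a-5p. A library selected for polyA tails does not capture mature microRNAs, so counts at these entries cannot be read as microRNA levels.

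RefSeq promoters (250 bases before to 50 after a start, GRCm38.p6) were found for 6 of the 7 genes, with 2 starts for Meg3. Neat1 had none in the table. Both strands were searched for 5 short motifs. Of all 32851 promoters, TATAAA occurred in 13.6%, CCAAT in 37.4%, GGGCGG in 35.7%, TGACG in 20.8% and CCCNNGGG in 13.7%. TGACG, one arm of the cAMP response element, was present in 2 of the 7 promoters, those of Malat1 and of the first Meg3 start. Meg3 had the largest difference between the library sets, and Malat1 had the largest departure in a single library. Their promoters follow with TGACG and its reverse complement in capitals. The second Meg3 start and Miat, the RNA with the second largest set difference, had no TGACG.

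Meg3 promoter, chr12:109540746-109541045, plus strand: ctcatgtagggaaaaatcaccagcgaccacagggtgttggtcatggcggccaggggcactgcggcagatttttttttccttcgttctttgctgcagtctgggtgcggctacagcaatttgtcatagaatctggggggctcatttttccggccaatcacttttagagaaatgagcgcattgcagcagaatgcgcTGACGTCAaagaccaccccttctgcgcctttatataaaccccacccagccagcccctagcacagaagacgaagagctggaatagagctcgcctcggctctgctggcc
Malat1 promoter, chr19:5802623-5802922, minus strand: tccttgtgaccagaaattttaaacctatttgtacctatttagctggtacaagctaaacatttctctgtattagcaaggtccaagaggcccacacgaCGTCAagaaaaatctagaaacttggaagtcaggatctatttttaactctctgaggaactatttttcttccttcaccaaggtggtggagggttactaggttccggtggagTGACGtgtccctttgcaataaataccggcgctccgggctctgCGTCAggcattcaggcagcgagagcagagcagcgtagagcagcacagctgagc

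In the Meg3 promoter the matches on the 2 strands overlapped, beginning 57 and 54 bases before the start, and form the palindromic element. TATAAA was matched on both strands in overlapping positions that begin 29 and 25 bases before the start, and CCAAT was matched at 100 bases. The Malat1 promoter held TGACG at 3 places, beginning 154, 45 and 3 bases before its start. The second Meg3 promoter held CCCNNGGG, that of Mirg CCAAT and that of Miat GGGCGG, each as 1 match, and the promoters of Rian and Snhg11 held none of the 5. These matches describe the letters of the windows and were not tested against any readout.

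Total counts ranged from 9239866 to 14632525 per library. The first principal component of the log2 levels (CPM, read counts per 1000000 counted reads after TMM scaling) held 41.6% of the variance and separated wild type replicate 3, heterozygous replicates 1 and 2 and homozygous replicates 3 and 4, here called set 2, from the other 6 libraries, set 1. Each set held all 3 genotypes. Depth overlapped between the sets, at 9239866 to 12221624 counts in set 1 and 11559031 to 14632525 in set 2. The summed counts of 14 Taar genes followed the labelled genotypes, and were 87 to 119 in wild type, 31 to 96 in heterozygous and 1 to 3 in homozygous libraries. Omp, the marker of mature OSNs, was present in every library at 346 to 737 CPM. One library stood apart. In homozygous replicate 2 the ribosomal RNA precursor Rn45s took 25.8% of all counts (Wilson 95% interval 25.77% to 25.82%, counting error only), against 0.0848% to 0.786% elsewhere, and results that rest on this library are given with and without it. Xist, which coats the inactive X chromosome, was above 100 CPM in 5 libraries and at most 1.70 CPM in the others. The Y-linked gene Ddx3y had at most 1 count in these 5 libraries and 505 to 1407 counts in each of the other 6, so that the 5 were of female and the 6 of male origin. The 5 included all 3 wild-type libraries but only 1 heterozygous and 1 homozygous library, with 4 in set 1 and 1 in set 2.

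Per length of annotated exons, Malat1 was the most abundant of the 7 RNAs, with a mean of 105 CPM per kb over the 11 libraries. Meg3 followed at 45.6 CPM per kb, Neat1 at 41.4 and Miat at 23.6. Rian (6.48 CPM per kb), Snhg11 (3.60) and Mirg (2.05) were lower. Each RNA was above the next in this order in 11 of 11 libraries, except that Meg3 was above Neat1 in only 6. Meg3 exceeded Neat1 in 4 of the 5 libraries of set 2 and in 2 of the 6 of set 1. The annotation behind the deposited counts is not given in the sources used here, so that the levels per kb rest on the exon lengths of the GENCODE release.

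**Figure D1:**
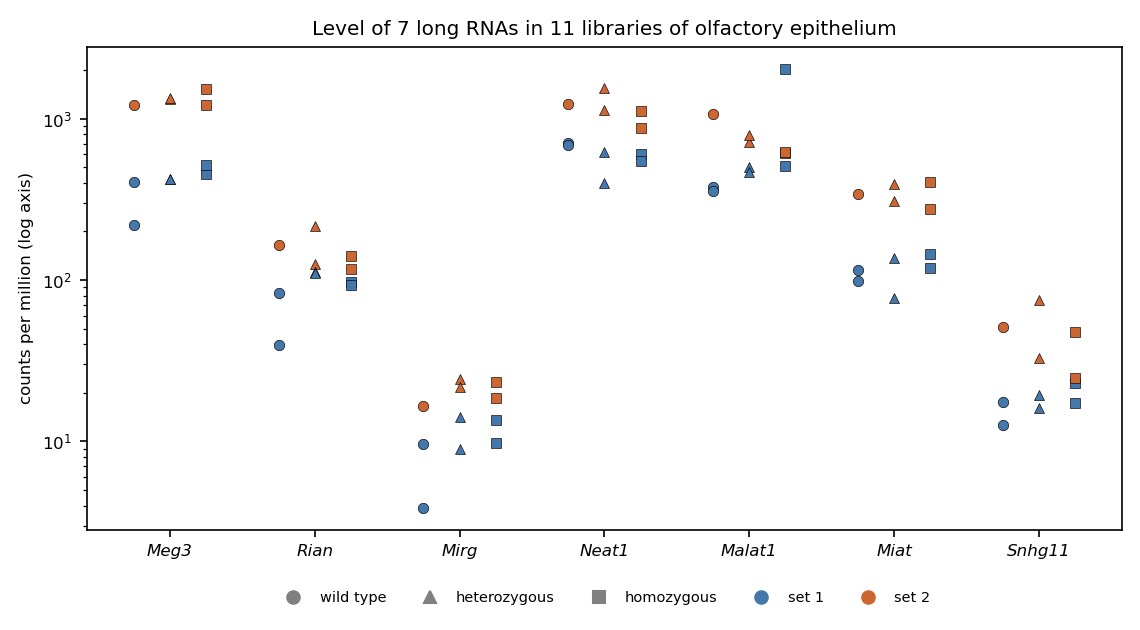
Level in CPM (log axis) of the 7 long RNAs, 1 point per library, with shape for genotype and colour for library set. Set 2 points lie above all set 1 points for every RNA but Malat1, where homozygous replicate 2 of set 1 is the highest of all at 2032 CPM.

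Meg3 was 3.26-fold higher in set 2 than in set 1. In set 1 it was measured at 218 and 405 CPM in wild type replicates 1 and 2, at 420 and 425 CPM in heterozygous replicates 3 and 4, and at 455 and 517 CPM in homozygous replicates 1 and 2. In set 2 it was at 1212 CPM in wild type replicate 3, at 1326 and 1338 CPM in heterozygous replicates 1 and 2, and at 1223 and 1528 CPM in homozygous replicates 3 and 4. The lowest library of set 2 thus stood 2.34-fold above the highest of set 1, with the set means at 1325 ± 127 CPM (SD, n = 5) and 407 ± 101 CPM (SD, n = 6). The difference of 1.75 on the log2 scale ranked 65th of the 16574 entries. Wild type replicate 1 was the lowest library for Meg3, and also for Rian, Mirg and Snhg11.

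Not overlapping between the sets was common among all entries. Of the 16574, 16% were higher in every library of set 2 and 10.9% were lower in every library of set 2. Among the 7 RNAs, 6 were higher in every library of set 2, and all 7 were once homozygous replicate 2 was left out, where 17.1% of all entries were. Because the rule that chose them used this contrast, nothing is read from these counts. The median log2 difference was 1.14 over the 7 RNAs and -0.005 over all entries.

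Rian, the snoRNA host downstream of Meg3, differed less than Meg3 did. It was measured at 39.8 to 112 CPM in set 1 (median 95.1) and at 165, 125, 215, 141 and 117 CPM in set 2, in the order wild type 3, heterozygous 1 and 2, homozygous 3 and 4. The sets nearly touched, with heterozygous replicate 3 at 112 CPM and homozygous replicate 4 at 117 CPM, and the means differed 1.71-fold.

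Mirg, the microRNA host, was the least abundant. It had 42 counts in wild type replicate 1, or 0.000402% of that library (Wilson 95% interval 0.000297% to 0.000543%). In set 1 it ranged from 3.89 to 14.1 CPM (median 9.73), and in set 2 it was at 16.5, 24.4, 21.7, 18.5 and 23.4 CPM, in the same order. The set means of 10.02 ± 3.71 CPM (SD, n = 6) and 20.9 ± 3.34 CPM (SD, n = 5) differed 2.09-fold. Mir3072, whose entry lies within Mirg, had 23 counts in set 1 and 98 in set 2.

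Within the locus the 3 RNAs did not keep a fixed proportion. Rian had 180 to 268 counts per 1000 Meg3 counts in set 1 and 76.8 to 161 in set 2, so that the sets did not overlap. The lowest value, 76.8, was that of homozygous replicate 4, which had the highest Meg3 level, and wild type replicate 1, with the lowest Meg3 level, stood at 183. Mirg had 17.8 to 33.2 counts per 1000 Meg3 counts in set 1 and 13.6 to 18.4 in set 2, which overlapped through wild type replicate 1 at 17.8 and heterozygous replicate 1 at 18.4. Relative to Rian, Mirg overlapped between the sets, at 80.0 to 146 and 99.95 to 200 counts per 1000 Rian counts. The ratios share the measurements that chose the genes.

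**Figure D2:**
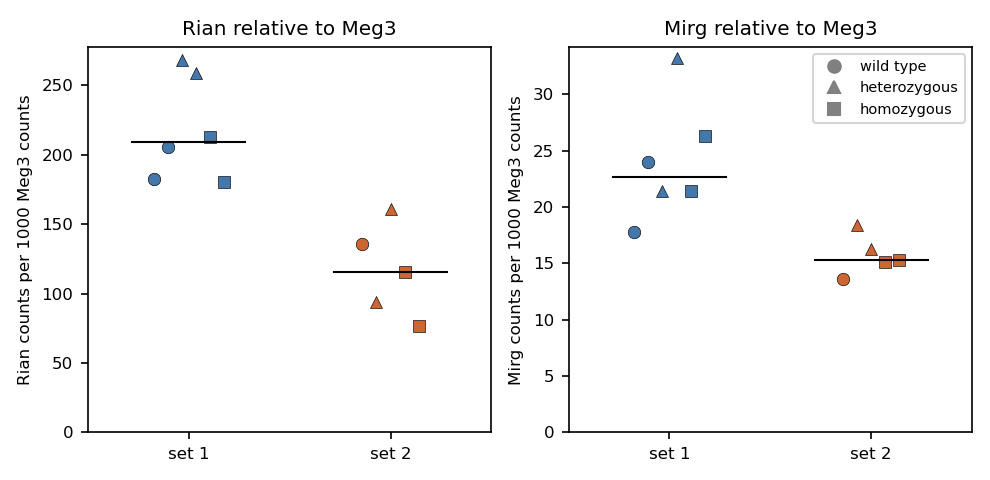
Rian (left) and Mirg (right) counts per 1000 Meg3 counts in each library, by set, with shape for genotype and a line at the median. The medians were 209 and 115 for Rian and 22.7 and 15.3 for Mirg, and only Mirg overlaps between the sets.

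The protein-coding genes of the same domain did not move as a block with the 3 RNAs. Dlk1, which encodes a membrane ligand related to Notch ligands, was at 28.9 to 147 CPM in set 1 and 45.4 to 125 CPM in set 2. Dio3, the enzyme that inactivates thyroid hormone, was lower in every library of set 2, with means of 2.33 and 0.766 CPM and 200 counts over all libraries. Rtl1, a retrotransposon-derived gene between Meg3 and Rian on the opposite strand, had means of 1.74 and 3.72 CPM, and the sets overlapped. The strand setting of the counting is not given in the sources used here, so that reads from Rtl1 and from antisense transcripts over it cannot be told apart. Of the 9 tested coding and flanking genes of the domain, only Begain, a synaptic protein gene beside Dlk1, was higher in every library of set 2, at 73.7 against 25.7 CPM. Dio3, Wars and Ppp2r5c were lower in every library, and the median of the 9 was -0.19 on the log2 scale.

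**Figure D3:**
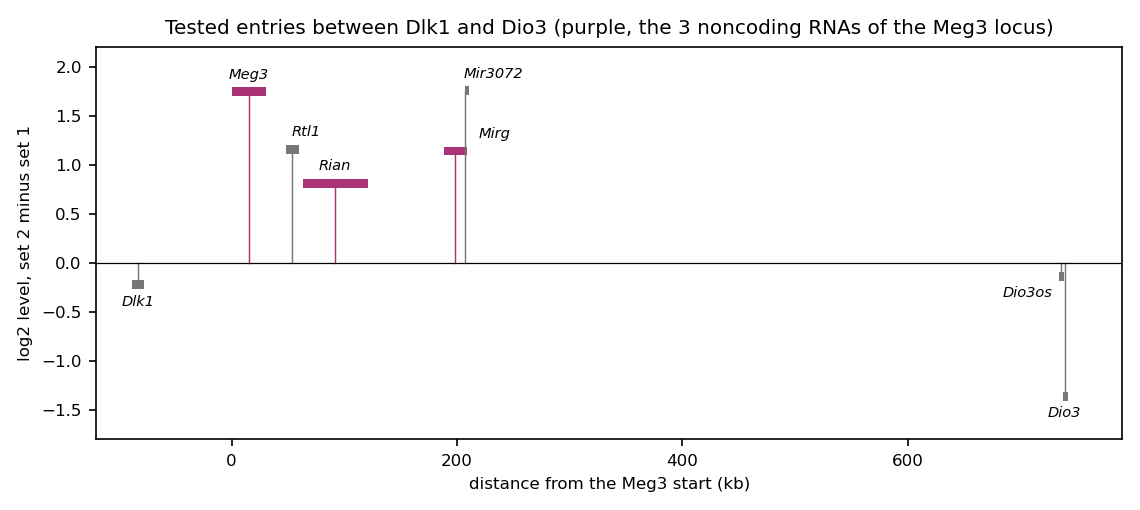
Difference of log2 CPM between set 2 and set 1 (vertical axis) for the 8 tested entries from Dlk1 to Dio3, placed by distance from the Meg3 start in kb, with bar width for gene length (short entries are widened to 4 kb). Meg3, Rian and Mirg lie at 1.75, 0.81 and 1.14, Rtl1 at 1.16 and Mir3072 at 1.75, whereas Dlk1, Dio3os and Dio3 lie below 0.

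Neat1 was measured at 702, 687, 402, 620, 604 and 550 CPM in set 1, in the order wild type 1 and 2, heterozygous 3 and 4, homozygous 1 and 2. In set 2 it was at 1234, 1545, 1127, 876 and 1117 CPM. All of set 2 stood above all of set 1, the closest libraries being homozygous replicate 3 and wild type replicate 1, and the means differed 1.99-fold.

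Malat1, the neighbour of Neat1, behaved differently because of 1 library. It was at 379, 357, 502, 470, 512 and 2032 CPM in set 1 and at 1061, 712, 787, 614 and 618 CPM in set 2. The 2032 CPM of homozygous replicate 2 came from 18629 counts, 0.154% of that library (Wilson 95% interval 0.151% to 0.156%). With this library the fold between set means was 1.07, and without it 1.71, with no overlap. The ratio of Malat1 to Neat1 counts was 3693 per 1000 in homozygous replicate 2 and 461 to 1249 per 1000 in the other libraries, so that Neat1 (550 CPM) did not share the high level. Of the other 6 RNAs, 5 lay in homozygous replicate 2 within the range of the other libraries of set 1, and Meg3, at 517 CPM, lay above their highest value of 455 CPM.

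Several RNAs that are not polyadenylated, or that respond fast to stimulation, were also high in homozygous replicate 2, and they were picked out after their values were seen. Rn45s was at 341346 CPM there and at 813 to 7737 CPM in the other libraries. Rmrp and Rpph1, the RNA parts of the RNase MRP and RNase P enzymes, were at 116 and 145 CPM against at most 3.14 and 5.21 CPM. The replication histone gene Hist1h1e was at 25.7 CPM against at most 1.53. The immediate early genes Fos and Egr1 were at 226 and 529 CPM, against at most 52.1 and 147 CPM. Lars2 (9821 against at most 585 CPM) and Mir6236 (273 against at most 12.8 CPM) were also high there and were not placed in either class. Some of these also moved with the sets when that library was left out. Rn45s was at 813 to 2816 CPM in the other 5 libraries of set 1 and at 2147 to 7737 CPM in set 2, with means of 1522 and 4447 CPM. Egr1 was lower in every library of set 2, at 29.5 to 66.8 CPM against 78.8 to 147 CPM, and Fos overlapped at 7.59 to 16.9 against 14.5 to 52.1 CPM. The part of any of these in the Malat1 level of that library, or in the set difference of the 7 RNAs, was not tested.

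**Figure D4:**
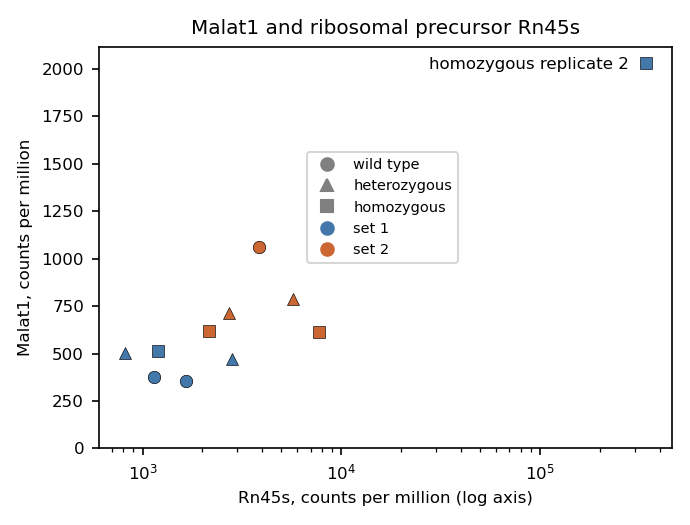
Malat1 (vertical axis, CPM) against the ribosomal RNA precursor Rn45s (horizontal axis, CPM, log axis) in the 11 libraries. Homozygous replicate 2 lies alone at 341346 CPM of Rn45s and 2032 CPM of Malat1, while the other libraries have at most 7737 CPM of Rn45s and 1061 CPM of Malat1.

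Miat was the second most different RNA between the sets, at 2.98-fold. It was at 116, 98.9, 138, 77.5, 145 and 119 CPM in set 1 and at 339, 394, 310, 275 and 406 CPM in set 2. The lowest library of set 2 stood 1.90-fold above the highest of set 1. Snhg11 was at 12.7, 17.6, 16.2, 19.3, 22.9 and 17.2 CPM in set 1 and at 51.4, 33.0, 75.2, 24.6 and 47.5 CPM in set 2. Its sets were just apart, with homozygous replicate 1 at 22.9 CPM and homozygous replicate 3 at 24.6 CPM, although the means differed 2.63-fold. Set 2 was also the more variable for Snhg11, with a coefficient of variation of 42.0% against 19.1% in set 1.

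The nearest tested genes, 3 on each side, were read beside each RNA outside chromosome 12. Of the 6 around Miat none was higher in every library of set 2, with log2 differences from -0.57 (Mn1) to 0.67 (Srrd). Around Malat1 and Neat1, Ltbp3 was higher in every library of set 2 (284 against 198 CPM), whereas Frmd8 overlapped (42.2 against 38.5 CPM). Beside Snhg11, only Snhg17, another snoRNA host, was higher in every library (51.0 against 24.3 CPM).

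Wild type replicate 3 was the only library of set 2 with high Xist, and its Meg3 level of 1212 CPM was just below the 1223 to 1528 CPM of the rest of set 2. Its Malat1 level of 1061 CPM was above the 614 to 787 CPM of the rest. In set 1, Meg3 was at 218 to 455 CPM in the 4 libraries with high Xist and at 425 to 517 CPM in the other 2. Xist itself was at 4297 CPM in wild type replicate 3 and at 1327 to 1684 CPM in the 4 libraries of set 1 that had it.

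The genotype comparison asked whether loss of 1 or both copies of the Taar cluster changed these RNAs. None of the 7 passed in any comparison, as was so for every entry: with the quasi-likelihood test of edgeR, 0 of 16574 entries (0%) had an adjusted p under 0.05 when homozygous or heterozygous libraries were set against wild type, when they were set against each other, or over the 3 genotypes together. At an unadjusted p under 0.05 there were 500 entries (3.02%), 372 (2.24%), 93 (0.561%) and 240 (1.45%), none of them among the 7. With the replicate number as a block, the 500 entries of homozygous against wild type became 286, and still 0 had an adjusted p under 0.05. DESeq2 called 8, 3 and 2 entries in the 3 pairwise comparisons, and again none of the 7. The edgeR fit thus did not call the deleted Taar genes either. Their summed counts were 87 to 119 in wild type and 1 to 3 in homozygous libraries. The lack of a call among the 7 RNAs therefore does not show that they were unchanged.

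Mean Meg3 levels were 612 ± 528 CPM in wild type (SD, n = 3), 877 ± 525 CPM in heterozygous (SD, n = 4) and 931 ± 529 CPM in homozygous libraries (SD, n = 4). The genotypes overlapped, since each held libraries of both sets. The log2 fold change of homozygous against wild type was 0.61 with a standard error (SE) of 0.65 (edgeR adjusted p = 0.996). That of heterozygous against wild type was 0.52 (SE 0.65, edgeR adjusted p = 0.99997). Without wild type replicate 3, the only wild-type library of set 2, these values were 1.58 and 1.49. All wild-type libraries were female and 3 of the 4 in each deletion genotype were male. With this class (Xist above or below 100 CPM) as a covariate, added after the data were seen, the values turned to -0.44 (SE 0.74) and -0.53 (SE 0.75). This class was tied to the set, with 4 of the 5 high-Xist libraries in set 1 and 4 of the 6 others in set 2. No fit held both terms. Leaving out 1 library without the covariate kept the values above 0, at 0.20 to 1.58 and 0.12 to 1.49. The direction of the Meg3 difference from wild type therefore depended on the covariate and is not given by these libraries.

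The same covariate turned the sign of 5 of the 7 RNAs in homozygous against wild type and of 6 of the 7 in heterozygous against wild type, and of 0 of the 7 between the deletion genotypes. In homozygous against wild type it also moved Neat1 from -0.15 to -0.85 (SE 0.46) and Malat1 from 0.66 to 0.06 (SE 0.65). For the other 6 RNAs, without it, the log2 fold change of homozygous against wild type ranged from -0.15 for Neat1 to 0.70 for Mirg, with SEs of 0.39 to 0.61. Heterozygous against wild type ranged from 0.04 for Malat1 to 0.79 for Mirg. Homozygous against heterozygous ranged over the 7 from -0.36 for Snhg11 to 0.61 for Malat1. Leaving out 1 library moved that Malat1 value to between -0.09 and 0.82. The Malat1 difference of 0.66 between homozygous and wild-type libraries rested on homozygous replicate 2, without which it was -0.05. The SEs over the 3 comparisons were 0.36 to 0.65 on the log2 scale.

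Within a set the Meg3 levels were closer together. In set 1, where each genotype had 2 libraries and both wild-type ones were female, 3 of the 7 RNAs had genotypes that did not overlap, as had 5.85% of all entries. Meg3 and Malat1 went from wild type through heterozygous to homozygous, and for Rian the heterozygous libraries (112 and 110 CPM) stood above the homozygous ones (97.0 and 93.2 CPM). Mirg, Neat1, Miat and Snhg11 overlapped between genotypes. In set 2 heterozygous and homozygous libraries overlapped for Meg3, and wild type had 1 library. Malat1 ran the opposite way there, from wild type (1061 CPM) through heterozygous (712 and 787 CPM) to homozygous (614 and 618 CPM) without overlap. The share of all entries separated in this way in set 2 was not counted, so nothing is read from that order. In set 1 the closest Malat1 libraries of the deletion genotypes were at 502 CPM (heterozygous) and 512 CPM (homozygous). With the set as a covariate the log2 fold change of Meg3 in homozygous against wild type was 0.46 (SE 0.20, unadjusted p = 0.0377, edgeR adjusted p = 0.705). For Mirg the same fit gave 0.65 in heterozygous against wild type (SE 0.27, unadjusted p = 0.0339, edgeR adjusted p = 0.999). The set was itself read from these data, and the covariate fit gave 1132 and 754 entries at an unadjusted p under 0.05 in these 2 comparisons and 0 at an adjusted one.

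Related gene lists were read in the same way, by the number of members higher or lower in every library of set 2, beside the 16% and 10.9% of all entries. No list member passed the genotype tests at an adjusted p. At an unadjusted p under 0.05, beside 2.24% and 3.02% of all entries, 12 of 13 skeletal muscle markers were counted in heterozygous and 7 of 13 in homozygous against wild type, and 3 of 10 immune markers in each. So were 2 of the 9 Dlk1-Dio3 coding and flanking genes in each, and 2 of 10 markers of bulb and brain neurons in homozygous against wild type, and every other list had 0 or 1. Nuclear speckle and splicing protein genes were mostly higher in set 2. Of 20 tested, 14 were higher in every library and 0 lower, and the median log2 difference was 0.63. Srrm2 and Son, scaffold proteins of nuclear speckles, had means of 1746 and 961 CPM in set 2 against 960 and 491 CPM in set 1. Pnn, a speckle and cell-junction protein gene, differed the most at 2.64-fold. The SR protein gene Srsf6 was 1.52-fold higher, and the kinase gene Clk1, whose product phosphorylates SR proteins, 1.95-fold. Srsf1 (472 against 380 CPM) and the helicase gene Ddx5 (859 against 775 CPM) overlapped between the sets.

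Of 16 tested paraspeckle protein genes, 6 were higher in every library of set 2 and 1, Fam98a, was lower, with a median of 0.06. Those higher were Sfpq, Tardbp, Hnrnph3, Dazap1, Ewsr1 and Taf15, of which Ewsr1 (430 against 246 CPM) differed most. Hnrnpk (250 against 293 CPM) and Cpsf6 (369 against 250 CPM) overlapped.

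Of the 15 tested snoRNA host genes other than Snhg11, 8 were higher in every library of set 2 and 0 lower, with a median of 0.50. Snhg20 was at 71.3 against 15.8 CPM, a 4.51-fold difference. Gas5 was the most abundant at 231 against 186 CPM and overlapped, as did Snhg1 (53.8 against 38.0 CPM) and Snhg18 (56.0 against 43.9 CPM), whereas Snhg5 (54.9 against 39.3 CPM) did not.

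Other regulatory long noncoding RNAs did not move together. Of 15 tested, 3 were higher in every library of set 2 and 1 was lower. Firre, an X-linked nuclear RNA, was at 403 to 567 CPM in set 2 and at 164 to 198 CPM in set 1, whereas Tug1 had means of 152 and 152 CPM. The antisense RNAs Airn and Nespas were also higher, and Peg13 was lower. The counts of antisense RNAs carry the same strand limit as Rtl1.

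Imprinted genes as a group did not follow Meg3. Of the 30 tested outside the domain, 4 were higher in every library of set 2 and 3 lower, and the median was -0.16. H19 (4301 against 4739 CPM) and Igf2 (2633 against 2737 CPM), the most abundant, overlapped, as did Gnas (1122 against 1242 CPM) and Plagl1 (392 against 464 CPM). Peg3, a paternally expressed zinc finger gene, was 1.75-fold higher, at 602 against 344 CPM.

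**Figure D5:**
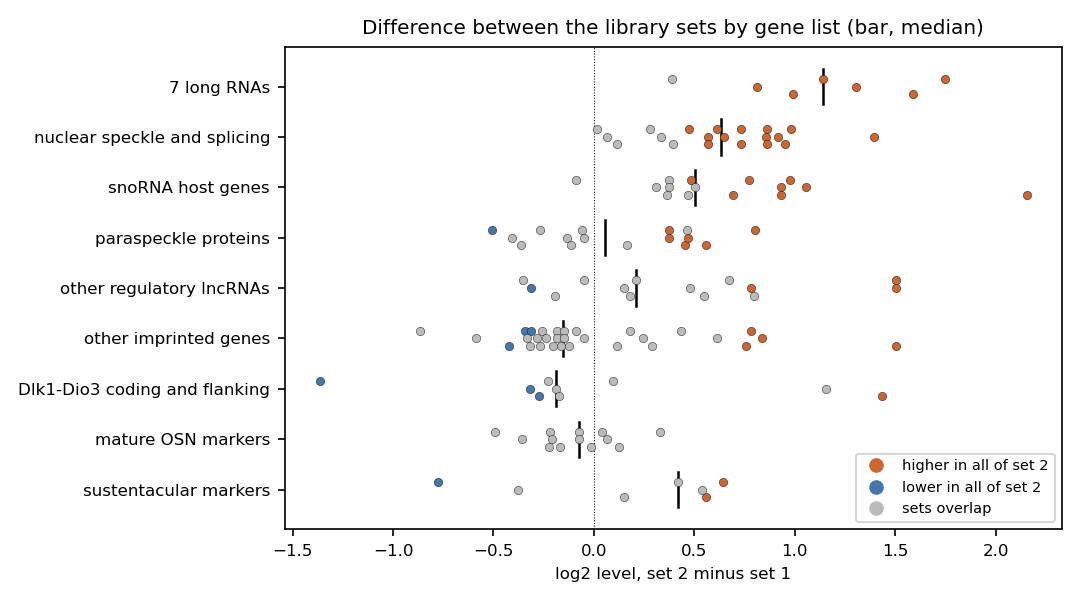
Difference of log2 CPM between set 2 and set 1 for each tested gene of 9 lists except Xist, with a bar at each list's median and colour for whether the sets overlap. The medians were 1.14 for the 7 RNAs, 0.63 for nuclear speckle and splicing genes, 0.50 for snoRNA hosts and -0.07 for mature OSN markers. Xist, at -4.35, was left out of the points and kept in the median of its list.

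Cell type markers moved with the sets in some lists. In whole tissue, fewer cells of a type and less RNA per cell cannot be told apart. Of 13 mature OSN markers 0 were higher or lower in every library, and their summed level was 2122 to 3725 CPM in set 1 and 2203 to 2993 CPM in set 2. Of 7 sustentacular (supporting cell) markers 2 were higher and 1 lower, with sums of 2087 to 3761 and 3309 to 4018 CPM. Endothelial markers were lower, 3 of 6 in every library, with sums of 277 to 354 and 193 to 255 CPM. So were 2 of 7 markers of respiratory ciliated cells, with sums of 707 to 1058 and 552 to 670 CPM. Of 10 tested markers of bulb and brain neurons, Gad2 (32.7 against 13.0 CPM) and Camk2a (31.6 against 18.4 CPM) were higher, and the sums were 162 to 229 and 210 to 246 CPM. No marker of these lists was at 0 in all libraries. Of the 5 horizontal basal cell markers 0 had a higher mean in set 2 and 1 was lower in every library, with a median log2 difference of -0.86 and sums of 110 to 273 and 80.6 to 122 CPM. Of the 6 Bowman's gland markers 0 had a higher mean in set 2 and 1 was lower in every library, with a median of -1.05. Their sums, 6885 to 26585 and 3169 to 9639 CPM, were mostly Bpifb9b (means of 15021 and 6197 CPM). The remaining lists (immature OSNs, precursors, brain and ensheathing glia, muscle, cartilage and bone, fibroblasts, red cells, immune cells) held 0 or 1 members higher and 0 or 1 lower in every library. Among them, 0 of 8 fibroblast markers had a higher mean in set 2, with a median of -0.39 and sums of 1983 to 3437 and 1600 to 2221 CPM. Muscle markers varied the most, with sums of 12.4 to 2022 and 28.3 to 953 CPM, and 4 of the 7 red cell markers, the globins, were listed at 0 throughout. The part of cell makeup in the levels of the 7 RNAs was not tested.

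Likeness to Meg3 was measured as the root mean square difference of centred log2 CPM over the 11 libraries, so that a small value means parallel levels in size and direction. The closest entries outside the 7 were Mir3101 (0.19), Serinc4 (0.22), Slc9a5 (0.23), Btbd18 (0.25), Gigyf1 (0.27), Ankrd16 (0.28), A330023F24Rik (0.28), Creb5 (0.29), E230016M11Rik (0.29) and Asic3 (0.30), none of them on chromosome 12. Gigyf1, which encodes a protein that binds the growth factor adaptor Grb10, was the most abundant, at 321 to 481 CPM in set 2 and 94.0 to 115 CPM in set 1. Creb5 encodes a transcription factor, and Asic3 and Slc9a5 an ion channel and a sodium-proton exchanger. Mir3101 (0.74 to 6.20 CPM) and Btbd18 (0.19 to 1.98 CPM) were low, where the prior count of 2 narrows log2 differences. Counts at Mir3101, a microRNA entry, cannot be read as microRNA levels. Among the 7, Mirg (0.37) and Miat (0.38) were nearest to Meg3 and ranked 81st and 102nd of all entries, ahead of Snhg11 (0.46), Rian (0.56), Neat1 (0.59) and Malat1 (0.89). Over all entries, levels that jump between the 2 sets make values small whatever the gene.

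The entries closest to Malat1 were Nfkbiz (0.33), Csrnp1 (0.39), Irf1 (0.40), 1810062O18Rik (0.43) and Srrm4os (0.44). Nfkbiz, a regulator of NF-kappa-B, was at 105 CPM in homozygous replicate 2 and at most 41.1 CPM elsewhere. Csrnp1 (34.0 against at most 18.2 CPM) and Irf1, an interferon regulatory factor (62.5 against at most 44.7 CPM), were also highest in that library. 1810062O18Rik (1.42 against at most 1.86 CPM) and Srrm4os (1.74 against at most 2.26 CPM) were not.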

How the data were processed

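The authors trimmed reads (Trimmomatic 0.36), aligned them to mm10 (HISAT2 2.1.0) and deposited raw read counts per gene (featureCounts, Subread 1.6.2), per the labels and methods. Which annotation and strand setting were used, and how multi-mapping reads were counted, are not given in the sources used here. The deposited normalised signal (23129 rows; DESeq2 1.20.0) was a constant multiple of the raw counts within each library and was used only for that check. Each table held 11 columns, and 0 columns belonged to no sample.

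Groups came from the labels. The library sets were given with the rule that chose the 7 RNAs, and the first principal component separated the same libraries. The members and all gene lists were chosen with earlier results of these data known. Counts were tested with edgeR 4.0.16 (R 4.3.3): filterByExpr by genotype, TMM scaling, 1 quasi-likelihood fit of 3 genotypes over 11 libraries, and Benjamini-Hochberg adjustment over 16574 entries at 0.05. Log2 CPM used a prior count of 2. The sets were described and not tested. Deviations of same-numbered libraries correlated at 0.326 to 0.415 in the 3 wild-type and homozygous pairs, whose members lie in the same set, and at -0.585 to -0.188 in the 7 other pairs, whose members lie in different sets. The alternatives were RLE and total count scaling, no filter, DESeq2 1.42.0, fits of 2 genotypes, the library set or replicate number as a term, leaving out each library and, added after the data were seen, the Xist class as a term. Genes of other lists are named by the 5 highest mean levels, and for likeness by the 10 entries nearest Meg3 and 5 nearest Malat1. Others were chosen after their values were seen. Wilson intervals (95%) cover counting error only.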

Additional observations from a re-analysis of the deposited data

Results flagged for a closer look

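In groups of 4 to 6 libraries, a lone extreme value was looked for by its gap to the nearest library over the range of the group. This was done in 28 groups over the 7 RNAs, of which chance marks about 5%, and 3 were marked. Malat1 in homozygous replicate 2, at 2032 CPM, stood apart in the homozygous group, where the nearest library was at 618 CPM, and in set 1, where it was at 512 CPM. Rian in heterozygous replicate 2, at 215 CPM, stood apart in the heterozygous group, where the nearest library was at 125 CPM. That library belonged to set 2, where 215 CPM was the highest of 5 values and was not marked.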

How the results depend on the processing

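None of the 7 RNAs had an adjusted p under 0.05 in any of the 57 comparisons refitted under an alternative. The set differences have a direction fixed by the choice of the RNAs, and the one that moved by over 1.5 times was that of Malat1, from 0.39 to 0.76 on the log2 scale without homozygous replicate 2 and to 0.26 without wild type replicate 2. Where edgeR called 0 entries, DESeq2 called 8 between homozygous and wild-type, 3 between heterozygous and wild-type and 2 between homozygous and heterozygous libraries. Entries at an unadjusted p under 0.05 (500, 372 and 93) were 1132, 754 and 227 with the set as a covariate and 286, 239 and 43 with the replicate number as a block, which gave 0 at an adjusted p. Without the filter the third count was 206. Leaving out 1 library moved them to 317 to 721, 229 to 614 and 53 to 180, lowest without homozygous replicate 2, wild type replicate 1 and homozygous replicate 2.

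No fold change of the 7 RNAs passed a test, and many changed sign, including the larger ones, Malat1 without homozygous replicate 2 and Meg3 with the Xist class as a covariate. The cause was not tested. With the Xist class, homozygous against wild type gave Meg3 -0.44, Rian -0.038, Mirg -0.13, Miat -0.37 and Snhg11 -0.59, and Neat1, already below 0, moved to -0.85. Heterozygous against wild type gave Meg3 -0.53, Mirg -0.066, Neat1 -0.71, Malat1 -0.49, Miat -0.41 and Snhg11 -0.32. In homozygous against wild type, Snhg11 was at -0.040 with total count scaling and -0.00021 with the set as a covariate. In heterozygous against wild type, Neat1 was at -0.19 with the set as a covariate. In homozygous against heterozygous, Meg3 was at -0.18 and Miat at -0.12 with the replicate block, and Miat at -0.021 with total count scaling. Leaving out 1 library gave, for homozygous against wild type, Rian -0.14 to 0.86, Neat1 -0.37 to 0.18, Malat1 -0.050 to 1.36, Miat -0.040 to 1.14 and Snhg11 -0.34 to 0.89. For heterozygous against wild type it gave Neat1 -0.29 to 0.41, Malat1 -0.22 to 0.75, Miat -0.075 to 1.10 and Snhg11 -0.25 to 1.25. For homozygous against heterozygous it gave Meg3 -0.26 to 0.36, Mirg -0.31 to 0.12, Neat1 -0.48 to 0.13, Malat1 -0.092 to 0.82, Miat -0.36 to 0.43 and Snhg11 -0.74 to 0.29. Values that kept their sign moved too. Mirg ranged from 0.32 to 1.26 in homozygous against wild type. In heterozygous against wild type, Mirg ranged from 0.41 to 1.35 and Rian from 0.18 to 1.19. Rian ranged from -0.46 to -0.05 in homozygous against heterozygous. Mirg had the fewest counts of the 7 RNAs, 42 to 359 per library.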
